A study of Mus musculus with 6 samples.

Results

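The core loop of the circadian clock was examined in mouse liver through 10 genes. These were the period genes Per1, Per2 and Per3, the cryptochrome genes Cry1 and Cry2, the Rev-erb genes Nr1d1 and Nr1d2, and the positive arm Arntl (also called Bmal1), Clock and Npas2. The genes were taken by symbol, with earlier results of these data known. All 10 were found among the 8252 genes that have a probe set with a single gene symbol on the array. They held 12 of the 10855 such probe sets. A probe set is a group of short probes that read 1 transcript. Of the 12, 9 were bright enough to be tested, 1 for each of 9 genes, and all 9 lay above the intensity floor of 68.9 on all 6 arrays. The remaining 3 probe sets, 2 for Cry1 and the only one for Npas2, lay under that floor on every array.

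Total liver RNA came from C57BL/6 mice, a common inbred laboratory strain, kept for 12 weeks on 1 of 2 diets. The high-fat group received a Western style diet and the low-fat group a low fat diet, with 3 arrays each. All animals were C57BL/6. The keywords of the samples also name LDL receptor deficiency, but no altered allele is given for any of the 6 samples. The arrays are named here HF1, HF2 and HF3 (high-fat) and LF1, LF2 and LF3 (low-fat), with the numbers of their titles. They are labelled as replicates, but whether an array holds 1 mouse or a pool is not stated, so p-values measure the spread between these 6 arrays. Age, sex, feeding schedule and the time of day at collection are not stated in the labels, and the part of collection time in any difference below was not tested.

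In the clock loop, the ARNTL protein pairs with CLOCK or with its relative NPAS2 and switches on genes that carry E-box sequences, among them the period, cryptochrome and Rev-erb genes. PER and CRY proteins accumulate, enter the nucleus and shut that activity off. The Rev-erb proteins close a second loop by repressing Arntl through ROR elements, sequences that the activating ROR receptors also use. In liver most of these transcripts cycle every day, with Arntl near its peak when Per2 is near its trough, and the liver clock is set by the time of feeding as well as by the brain.

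DNA letters that these loops use can be seen near the start sites of some members, and do not by themselves place a gene in a loop. RefSeq promoter windows of assembly GRCm38.p6, with 250 bases before and 50 after each annotated start, were matched by symbol for 9 of the 10 members, and the unmatched member was Per2. Both strands were searched for the E-box CACGTG, its variant CACGTT, the ROR element core AGGTCA and the D-box TTATGTAA, which PAR bZip factors such as DBP recognise. No match in a member overlapped another. The stretches below run 5′ to 3′ on the strand of the gene, with matches in capitals, where AACGTG and TGACCT are the variant E-box and the ROR element core on the other strand.
Per1: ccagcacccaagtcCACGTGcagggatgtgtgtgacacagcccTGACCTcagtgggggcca
Per3: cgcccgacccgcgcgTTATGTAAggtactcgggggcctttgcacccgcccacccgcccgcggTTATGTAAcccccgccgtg
Cry1: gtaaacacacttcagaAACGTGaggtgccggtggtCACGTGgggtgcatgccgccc
Nr1d1: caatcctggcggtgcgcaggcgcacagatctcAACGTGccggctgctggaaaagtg
Nr1d2: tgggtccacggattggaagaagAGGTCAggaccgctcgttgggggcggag
Arntl: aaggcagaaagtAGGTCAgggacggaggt

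The Per1 stretch lies at chr11:69098769-69098829 on the plus strand. It holds an E-box whose first base is at -166, where -1 is the base before the start, and a ROR element core. The Per3 stretch, at chr4:151044805-151044885 on the minus strand, holds 2 D-boxes. The Cry1 stretch, at chr10:85185094-85185149 on the minus strand, holds both forms of the E-box. The Nr1d1 stretch, at chr11:98775382-98775437 on the minus strand, holds the variant form. The Nr1d2 stretch, at chr14:18239156-18239205 on the minus strand, and the Arntl stretch, at chr7:113207530-113207558 on the plus strand, each hold a ROR element core, which in Arntl starts at base 32 of the transcript. Among all 32851 windows of the table, CACGTG was found in 7.15%, CACGTT in 4.68%, AGGTCA in 16.3% and TTATGTAA in 0.938%. The 9 matched members had 13 windows, of which 2 held CACGTG, 3 held CACGTT, 4 held AGGTCA and 1 held TTATGTAA. Matches in Cry2 (the variant E-box) and in Clock (a ROR element core) are counted here, but their stretches are not shown. A match is a description of these letters and not evidence of binding.

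Per2 fell on the high-fat diet, with a log2 difference of -1.50, a 2.83-fold ratio. Arntl read higher, with a log2 difference of 1.52, a 2.86-fold ratio, but just missed the threshold. Per3, both cryptochromes and Nr1d1 had small differences with intervals that include 0. Each comparison is high-fat minus low-fat in limma's test, with Benjamini-Hochberg adjustment over the 8950 tested probe sets and a threshold of 0.05. Of the 9 tested members, 1 fell (Per2) and 8 did not pass, against 0.915% of 6557 tested genes called in either direction and 0.458% called lower, with 1 probe set each. An unadjusted p under 0.05 was reached by 4 of the 9 (Per1, Per2, Nr1d2 and Arntl), against 9.50% of all genes. These 4 also differed by at least 2-fold, which 1.94% of all genes did. No HF array lay within the range of the LF arrays for 3 of the 9 (Per2, Nr1d2 and Arntl), against 14.5% of all genes. The median size of the log2 difference, whatever its sign, was 0.49 over the 9 members and 0.18 over all tested genes. Because the members were chosen with earlier results of these data known, these shares are descriptions only.

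**Figure D1:**
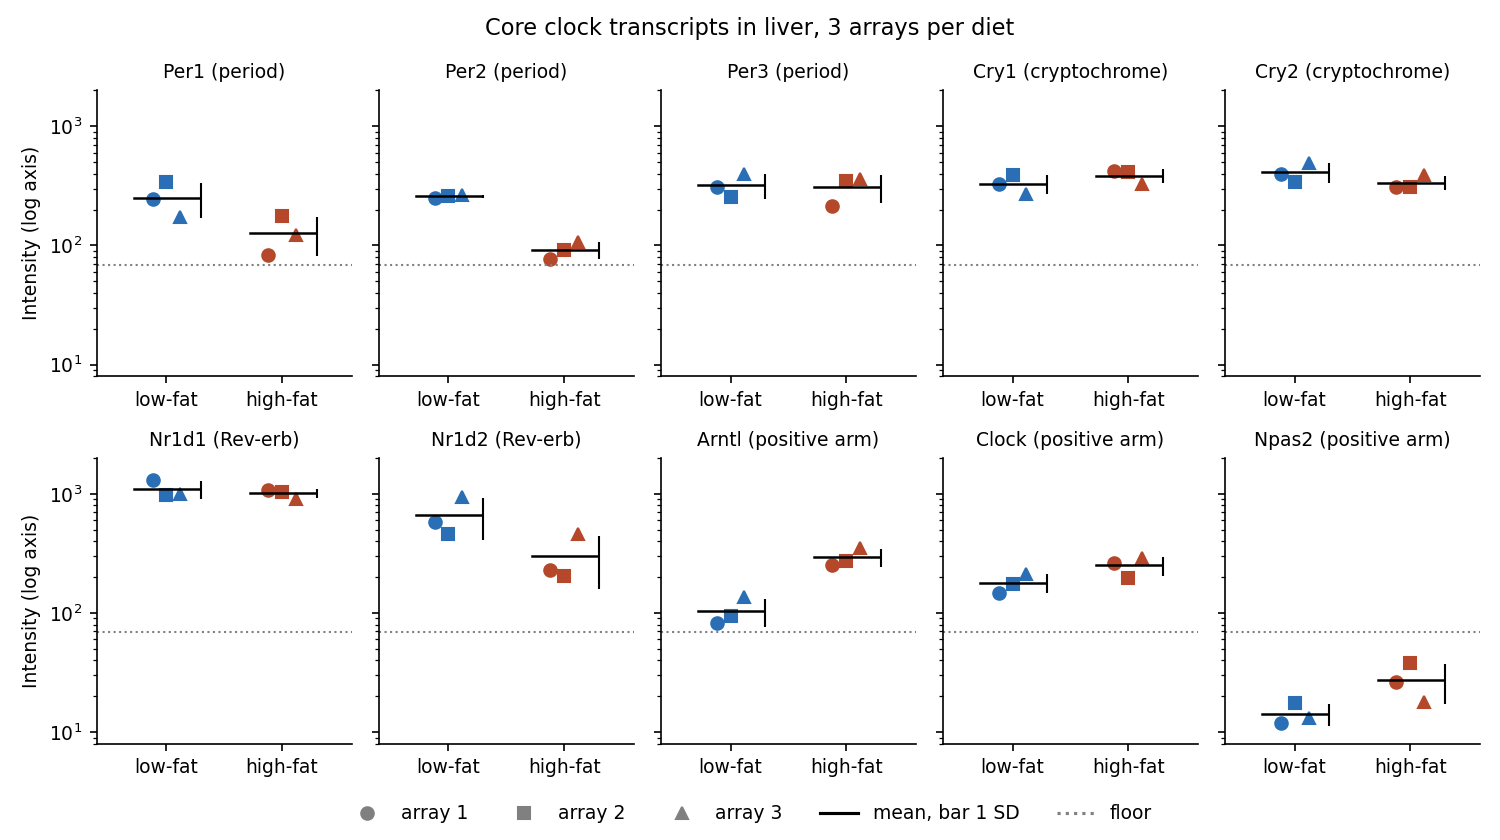
Intensity of the 10 clock genes on each array (log axis), with LF arrays in blue, HF arrays in red, array numbers as symbols, the mean as a line, 1 SD as a bar and the floor of 68.9 dotted. Per2 lies between 76.8 and 107.9 on the high-fat diet and between 251.6 and 265.8 on the low-fat diet, Arntl lies the other way round, and Npas2 is under the floor on all 6 arrays.

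The trimmed mean intensities of the arrays ran from 500.381 to 500.405 as deposited. All 7 hepatocyte markers with a probe set, among them Alb and Apoa1, were above the floor on all 6 arrays. Their summed intensity overlapped between the diets, at 152460 to 191280 on the high-fat and 159170 to 193930 on the low-fat diet. Limma called 0 of the 7, of which 4 had a log2 difference above 0 and 3 below. Tat, of this list, was lower on every HF array (log2 difference -0.79, adjusted p = 0.0742). Of the Kupffer cell and macrophage markers, 9 of 10 were above the floor on all arrays, and their summed intensity was 8704 to 11192 on the high-fat diet and 6686 to 8366 on the low-fat diet, without overlap. Limma called 0 of the 9 tested, of which 2 had an unadjusted p under 0.05, against 9.50% of all genes. All 9 had a log2 difference above 0, with a median of 0.38, where 48.7% of all genes were below 0. Summed stellate cell markers were 5940.1 to 7599.7 against 5297 to 5523, with 0 of 4 tested called by limma and 0 at an unadjusted p under 0.05. Most of that sum came from 1 marker, Dcn, at 4461.9 to 5501.5 on the high-fat and 4039.4 to 4057.7 on the low-fat diet. Of the 4 tested, 3 had a log2 difference above 0 and 1 (Col1a1, -0.02) below, so the sum does not stand for the list. The endothelial, red cell, B and T cell, bile duct and pancreas acinar lists overlapped between the diets. Of the bile duct markers, 0 were above the floor on all arrays. Their sum, 37.3 to 67.3 on the high-fat and 66.5 to 188.4 on the low-fat diet, is therefore no reading of cell content. Cd2, of the B and T cell list, was under the floor on every array. In proportion to its size, the acinar sum varied most from array to array among these lists, from 1154.4 on HF3 to 6319.4 on HF2. In whole liver, fewer cells of a type and less RNA per cell cannot be told apart, and the part of these other cell types in the clock values was not tested.

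The period genes encode the PER proteins, the inhibitors that accumulate through the cycle. Per2 stood at 76.8, 92.2 and 107.9 on HF1, HF2 and HF3 and at 251.6, 259.9 and 265.8 on LF1, LF2 and LF3. All 3 HF arrays were lower than every LF array, and the LF arrays were almost level with each other. The means were 92.3 ± 15.6 (SD, n = 3) for the HF arrays and 259 ± 7.13 (SD, n = 3) for the LF arrays. The log2 difference was -1.50 ± 0.25 (SE), with a 95% interval from -2.06 to -0.94 and an adjusted p of 0.0287 in limma. Per2 ranked 54th by p among the 8950 probe sets. With 1 array left out, the log2 difference ran from -1.62 to -1.38, but the call mostly did not hold. It held without HF3 (adjusted p = 0.0417) and was lost without HF1 (0.0741), HF2 (0.110), LF1 (0.103), LF2 (0.119) or LF3 (0.108). With a floor at the median intensity, above the high-fat values of Per2, the log2 difference was -0.52 (adjusted p = 0.172), and the call was also lost with a floor at the 10th percentile (0.0801), without a filter (0.132) and with the 3′ to 5′ ratio of the Gapdh control probes as a covariate (0.0547).

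Per1, the period gene that responds fastest to glucocorticoids and light, stood at 83.7, 175.7 and 121.9 on the HF arrays and at 245.4, 338.0 and 174.6 on the LF arrays. The groups overlapped by a narrow margin, since HF2 lay just above LF3. The log2 difference was -1.0 ± 0.36 (SE), a 2.01-fold ratio, and did not pass (adjusted p = 0.402). Per3, whose protein is the least needed of the PER proteins for rhythms, stood at 216.0, 345.0 and 361.9 on HF1, HF2 and HF3 and at 309.2, 253.7 and 400.0 on the LF arrays. The diets overlapped almost fully, and the log2 difference was -0.07 with a 95% interval from -0.70 to 0.55 (adjusted p = 0.980). Its sign was not stable: it was 0.16 without HF1, 0.10 without LF3 and 0.13 with the Gapdh ratio as a covariate. Within each array the log2 deviation of Per2 from its own mean, minus that of Per3, was -0.49, -0.90 and -0.75 on the HF arrays and 0.70, 1.03 and 0.41 on the LF arrays. This difference between the 2 genes was not tested. For Per2 and Per1 the same quantity overlapped between the diets, with means of -0.25 ± 0.45 (SD, n = 3) for the HF arrays and 0.25 ± 0.49 (SD, n = 3) for the LF arrays.

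The cryptochromes are the partners of the PER proteins and the stronger repressors of ARNTL and CLOCK. Cry1 was read by 1 tested probe set, whose suffix (f) marks probes that can be shared within a gene family. It stood at 420.1, 412.7 and 326.1 on the HF arrays and at 330.2, 389.1 and 269.1 on the LF arrays, and the groups overlapped. The other 2 Cry1 probe sets read at most 30.8 on any array and gave no level. Cry2 stood at 308.7, 310.0 and 387.5 on the HF arrays and at 399.8, 338.0 and 493.9 on the LF arrays, also with overlap. The log2 difference was 0.24 for Cry1, with a 95% interval from -0.26 to 0.73, and -0.28 for Cry2, with a 95% interval from -0.77 to 0.20. Neither passed (adjusted p = 0.847 and 0.796), and the intervals allow up to a 1.66-fold higher Cry1. Across the 6 arrays the 2 cryptochromes ran opposite to each other, with r = -0.995, a description over 6 points that share a chip, a scaling and a diet contrast. With the diet means removed the value was -0.998.

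The Rev-erb genes encode nuclear receptors that repress Arntl. Nr1d1 stood at 1084.0, 1041.8 and 912.0 on the HF arrays and at 1299.5, 982.3 and 995.8 on the LF arrays. The groups overlapped, and the log2 difference was -0.10 with a 95% interval from -0.45 to 0.24 (adjusted p = 0.920); as a ratio of HF to LF the interval spans 0.734 to 1.18. Without LF1, the array with the highest Nr1d1, the difference was 0.03. Nr1d2 stood at 231.3, 205.2 and 463.5 on the HF arrays and at 581.4, 463.9 and 947.4 on the LF arrays. HF3 and LF2 were all but equal, so the groups were separate only by that margin. The log2 difference was -1.18 ± 0.36 (SE), a 2.26-fold ratio, with a 95% interval from -1.98 to -0.38, and it did not pass (adjusted p = 0.297). With 1 array left out the difference ranged from -1.54 to -0.89 and the adjusted p from 0.0676 without HF3 to 0.611 without HF2. With that Gapdh ratio as covariate it was -0.74 (adjusted p = 0.124). The log2 deviation of Nr1d2 minus that of Nr1d1 overlapped between the diets, with means of -0.54 ± 0.76 (SD, n = 3) for the HF arrays and 0.54 ± 0.61 (SD, n = 3) for the LF arrays, so a difference between the receptors was not separated from the spread between arrays.

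**Figure D2:**
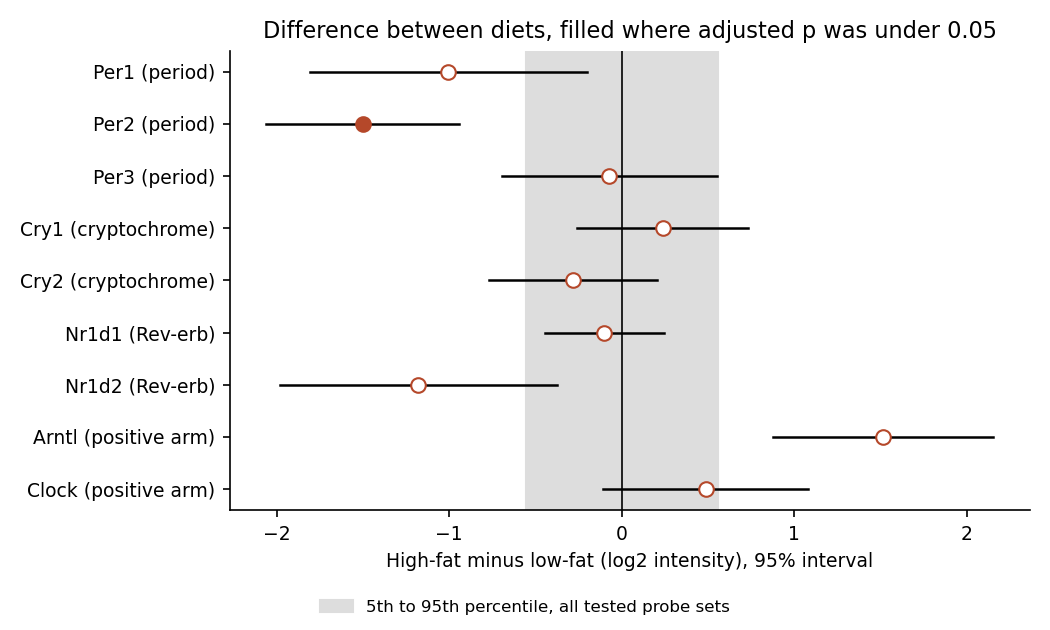
Log2 difference between the diets (high-fat minus low-fat) for the 9 tested members, with 95% intervals as lines and the 5th to 95th percentile of all tested probe sets, -0.56 to 0.56, in grey. Per2 (-1.50, filled because it was called), Nr1d2 (-1.18) and Per1 (-1.0) lie left of the grey band and Arntl (1.52) lies right of it, while the other 5 points fall inside.

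The positive arm holds the transcription factors that drive the loop. Arntl, which no other gene replaces in the clock, stood at 254.7, 274.5 and 354.0 on the HF arrays and at 82.5, 94.7 and 135.6 on the LF arrays. Every HF array was above every LF array. The means were 294 ± 52.6 (SD, n = 3) against 104 ± 27.8 (SD, n = 3). The log2 difference was 1.52 ± 0.28 (SE), with a 95% interval from 0.88 to 2.15, and just missed the threshold (adjusted p = 0.0523, rank 76 of the 8950). Arntl and Per2 were thus the members on either side of the threshold. Arntl passed with quantile normalization (adjusted p = 0.0443), scaling to a common median (0.0433), only probe sets above the floor on all arrays (0.0293) and that Gapdh ratio as covariate (0.0238), and with 1 array left out its adjusted p ran from 0.0509 to 0.179. A floor at the median intensity, above the low-fat values of Arntl, gave a log2 difference of 0.69.

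Clock, the usual partner of ARNTL, stood at 264.3, 197.8 and 289.6 on the HF arrays and at 147.9, 175.3 and 212.2 on the LF arrays. HF2 lay below LF3, and the log2 difference of 0.49, with a 95% interval from -0.11 to 1.08, did not pass (adjusted p = 0.669). Npas2, the relative that can take the place of CLOCK, stood at 26.3, 38.0 and 18.0 on the HF arrays and at 12.0, 17.7 and 13.2 on the LF arrays. All 6 values were under the floor, so no fold is given and Npas2 was not detectable with this probe set. The log2 deviation of Arntl minus that of Clock was 0.22, 0.75 and 0.57 on the HF arrays and -0.56, -0.61 and -0.37 on the LF arrays, a difference between the genes that was not tested.

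**Figure D3:**
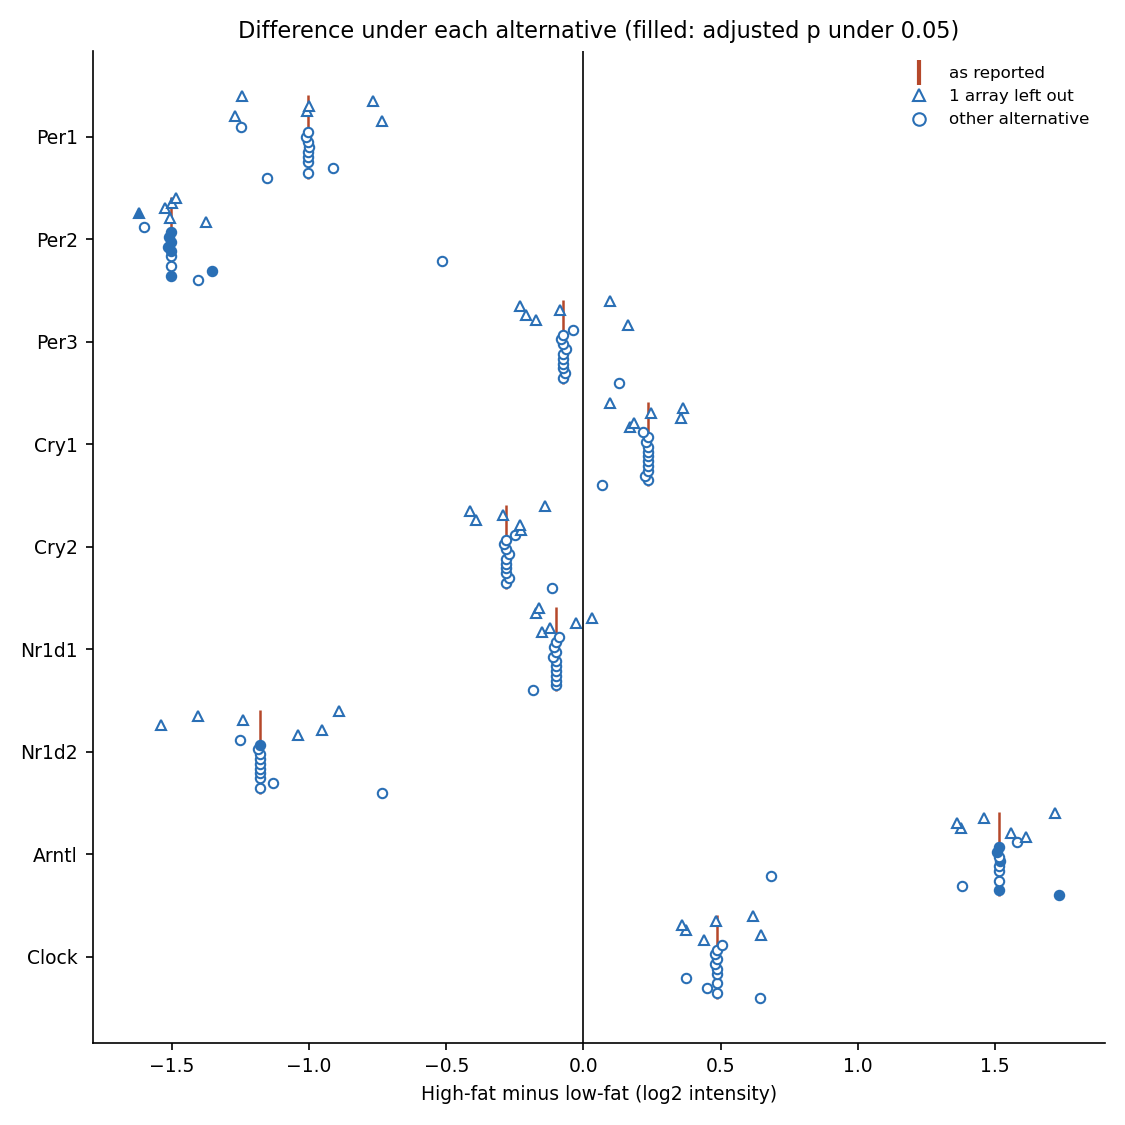
Log2 difference of each tested member under each alternative processing, with the reported value as a red line, triangles for 1 array left out, circles for other alternatives and filled marks where the adjusted p was under 0.05. Per2 passed in 8 of 18 alternatives, Arntl in 5 of 18 and Nr1d2 in 1 of 18, and the sign of Per3 and of Nr1d1 turned in some.

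Per2 and Arntl were the members that separated the diets by the widest margin. Taking each gene relative to its own mean over the 6 arrays, Arntl minus Per2 was 1.57, 1.41 and 1.55 log2 units on HF1, HF2 and HF3 and -1.77, -1.62 and -1.13 on LF1, LF2 and LF3. Since each gene alone was fully separate between the diets, in opposite directions, their difference had to be so too. A second pattern crossed the diets: the arrays numbered 3 read highest within their own diet for 6 of the 9 members (Per2, Per3, Cry2, Nr1d2, Arntl and Clock), and lowest for Cry1. Over all 6557 tested genes, the arrays numbered 3 were highest in both diets for 19.7% and lowest in both for 16.7%. The same 2 arrays had the lowest 3′ to 5′ ratios of the Gapdh control, a sign of how evenly the transcript was read, at 0.889 for HF3 and 0.824 for LF3, where the other 4 arrays ran from 1.04 to 1.23. The same ratio of the Actb control did not set them apart, at 1.79 for HF3 and 1.75 for LF3, where the other 4 ran from 1.56 to 1.96. The part of these ratios in the array pattern was not tested. Without both arrays numbered 3, an alternative chosen after their values were seen, the log2 difference was -1.60 for Per2 (adjusted p = 0.108), 1.58 for Arntl (0.108), -1.25 for Nr1d2 (0.106) and -1.25 for Per1 (0.395). Over the 6 arrays Per2 and Arntl ran opposite to each other (r = -0.891), but with the diet means removed they did not (r = 0.642). With the diet means removed, the members that moved most nearly together over the arrays were Cry2 and Nr1d2 (r = 0.951), and Nr1d2 ran opposite to Cry1 (r = -0.960). These are descriptions over 6 arrays.

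**Figure D4:**
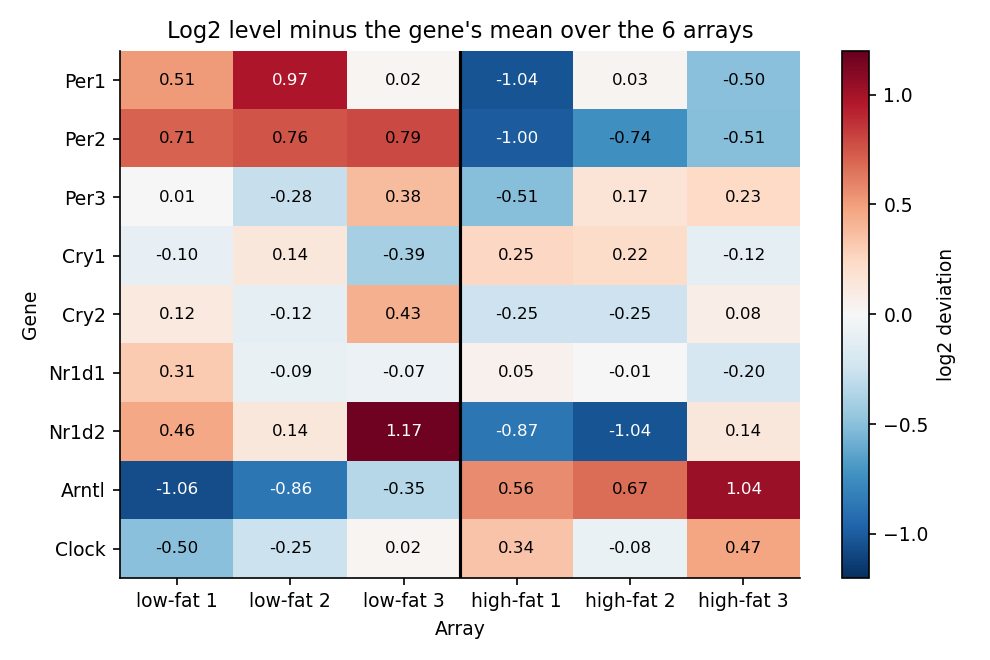
Log2 level of each tested member minus its own mean over the 6 arrays, by array, in red where above and blue where below that mean. Per2 is above its mean on the 3 LF arrays (0.71 to 0.79) and below it on the 3 HF arrays, Arntl shows the reverse, and Nr1d2 is highest on LF3 (1.17).

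The accessory list holds kinases, ubiquitin ligases, ROR receptors and cofactors that modify or assist the clock proteins. Of its 14 tested genes, 0 passed limma's test, against 0.915% of all tested genes called in either direction. An unadjusted p under 0.05 was reached by 1 (Nampt), against 9.50% of all genes. The median log2 difference was -0.01. Nampt, the rate-limiting enzyme of NAD salvage and a target of ARNTL and CLOCK, stood at 335 ± 155 (SD, n = 3) for the HF arrays and 612 ± 90.9 (SD, n = 3) for the LF arrays (adjusted p = 0.322). Bhlhe40, a repressor that competes for E-boxes, had a log2 difference of -0.70 (adjusted p = 0.678). Rora, the receptor that opposes the Rev-erb proteins at ROR elements, had a log2 difference of -0.15 (adjusted p = 0.911) on its tested probe set.

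Targets downstream of the loop were also read. Of the 3 tested genes among the PAR bZip factors and Nfil3, which act through D-boxes, 1 fell and 2 did not pass. Over all 6557 tested genes, 0.458% were called lower. All 3 genes of this list had an unadjusted p under 0.05 in limma, against 9.50% of all genes. The one that fell was Dbp, a direct E-box target of ARNTL and CLOCK, with a log2 difference of -2.65 (adjusted p = 0.00242). Of 12 tested rhythmic liver output genes, 4 fell and 8 did not pass, against the same 0.458% of all genes called lower. Their median log2 difference was -0.88, where that of all tested genes was 0.01. An unadjusted p under 0.05 was reached by 8 of the 12. The 4 were Upp2 (-2.26), Usp2 (-1.98), Noct (-1.92) and Lpin1 (-1.28), and their adjusted p was 0.00195, 0.0135, 0.0172 and 0.0325, in that order. Other tested probe sets of Noct did not pass, at -0.06 (adjusted p = 0.960 in limma) and -0.68 (0.414). Both carry the suffix (f) of probes that can be shared within a gene family. The one at -0.68 was under the floor on all 3 HF arrays, which were set to it, so the size of that difference is limited by the floor. Another tested probe set of Usp2 passed, at -3.86 (0.00398). The calls of Dbp and Upp2 held with each array left out. Usp2 lost its call in 1 of the 6 such fits, Noct in 3 and Lpin1 in 5. These lists were written with results on these genes known and are no independent support for Per2.

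Genes that respond to the cues that set the liver clock were read beside the members. The counts below stand against 0.915% of all tested genes called by limma and 9.50% with an unadjusted p under 0.05. Of 6 glucocorticoid response genes, 0 passed limma's test and 2 had an unadjusted p under 0.05, while all 6 had a log2 difference below 0, with a median of -0.48, where 48.7% of all genes were below 0. Pck1, the gluconeogenic carboxykinase, had a log2 difference of -0.78 (adjusted p = 0.0560), and Tat, tyrosine aminotransferase, of -0.79 (adjusted p = 0.0742). Of 7 feeding and fasting genes, 0 passed limma's test and 3 had an unadjusted p under 0.05, with a median of 0.22. The 3 were Pck1, which is counted in both lists, Srebf1 and Irs2. Srebf1, the insulin-driven regulator of fat synthesis, had a log2 difference of 0.48 (adjusted p = 0.347). Irs2, an adaptor of the insulin receptor that was named after its values were seen, had a log2 difference of -1.21 (adjusted p = 0.484). Of 7 temperature response genes, 0 passed limma's test and 1 had an unadjusted p under 0.05, with a median of 0.01. The heat shock genes Hsp90aa1 and Hspa1b had log2 differences of 0.40 and -0.92 (adjusted p = 0.403 and 0.675). The part of these cues in the values of Per2 and Arntl was not tested.

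**Figure D5:**
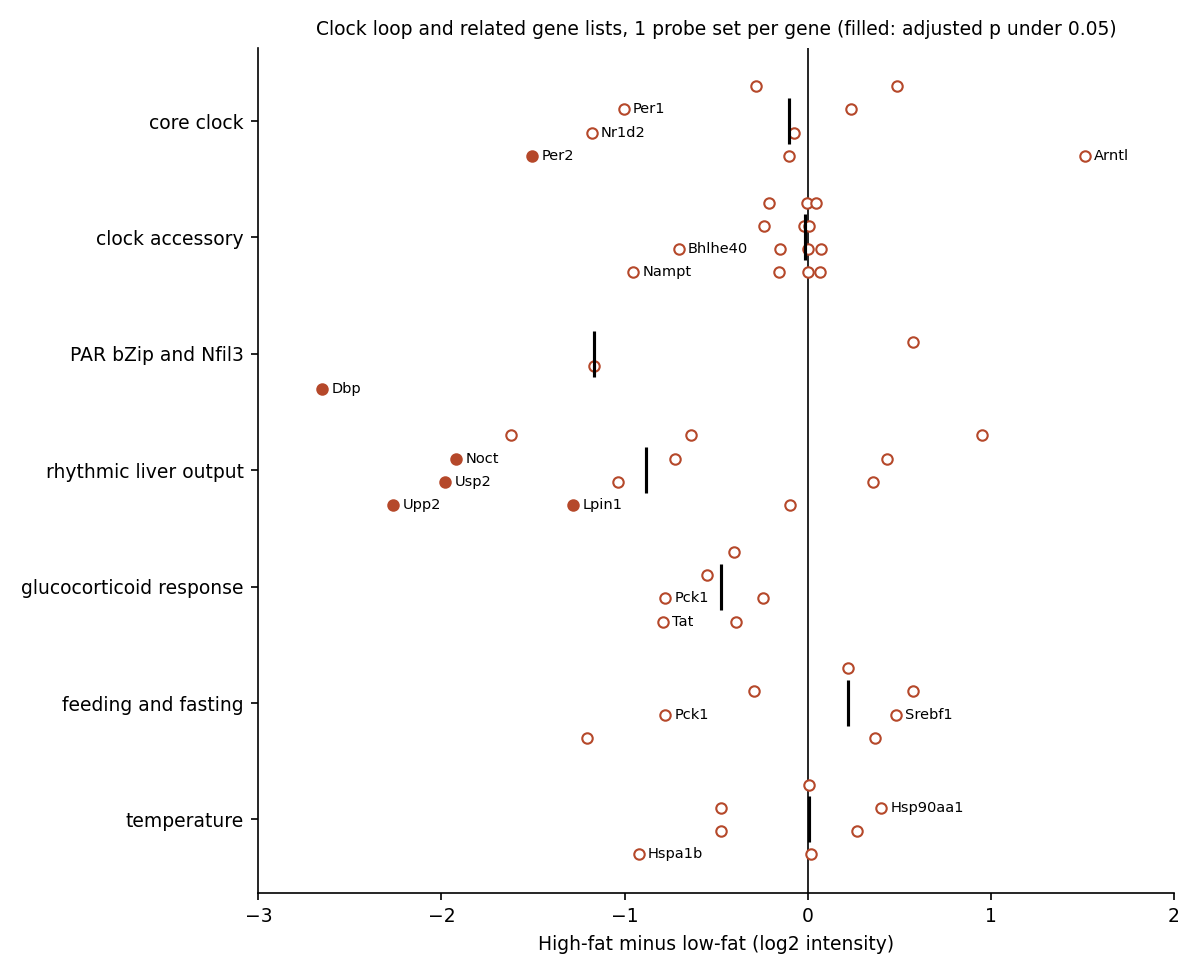
Log2 difference between the diets for the tested genes of the clock loop and of 6 related lists, 1 probe set per gene, with the list median as a black bar and filled points where the adjusted p was under 0.05. The accessory list centres on -0.01 and the rhythmic output list on -0.88, and the 6 filled points (Per2, Dbp, Upp2, Usp2, Noct and Lpin1) all lie below 0.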

How the data were processed

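The deposited table gives 1 linear intensity per probe set and array (12488 probe sets, 6 arrays). Which software and background correction the authors applied is not stated per the labels. The trimmed means show that the authors had scaled each deposited array as a whole, and that scaling was kept. Gene names came from the platform annotation table, of which 10839 single-gene probe sets matched RefSeq assembly GRCm38.p6 by gene ID. The 66 control probe sets were left out. Intensities under the pooled 30th percentile were set to it (68.9) before log2, and probe sets with at least 3 arrays above it were tested. limma 3.58.1 in R 4.3.3 (lmFit, eBayes with a variance trend) compared the diets on the whole table, two-sided, and this fit was tested on simulated data. Adjusted p-values are limma's. A gene is represented by its tested probe set with the highest mean. Log2 differences are on the floored log2 scale, while means and SDs are of intensities. The number of arrays limits the precision.

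The members, the related lists and the tests were chosen with earlier results of these data known. Named genes were all members, the called genes of each related list or otherwise the 2 with the smallest p, and, whatever their values, Rora and another gene that is not reported here. No pairing of the arrays by replicate number is given in the labels, and the fit used none. Deviations of same-numbered arrays from their diet means correlated across probe sets with r of 0.071, 0.110 and 0.306 for numbers 1, 2 and 3. Arrays of unlike number gave r from -0.205 to 0.113. The values for numbers 1 and 2 lay within that range and the value for number 3 lay above it. Alternatives are listed in the closing section. Python 3.11.15, pandas 2.3.3 and matplotlib 3.10.9 made the tables and plots.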

Additional observations from a re-analysis of the deposited data

How the results depend on the processing

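Alternatives changed the normalization, floor, filter, variance model, array set, a control ratio as covariate and the choice of probe set. The number of clock members called, 1 as reported, was 2 with quantile normalization, scaling to a common median or only probe sets above the floor on all arrays, 3 with the replicate number as a block, and 0 with a floor at the 10th or 50th percentile, no filter or HF3 and LF3 both left out (an alternative added later, with the data known). It was 0 to 1 with single arrays left out. Members called lower, 1 as reported, were 2 with the replicate block and 0 with the floors at the 10th or 50th percentile, no filter, the Gapdh ratio as covariate or HF3 and LF3 both left out, and 0 to 1 with single arrays left out. Members called higher, 0 as reported (limma; 1 member, Arntl, was above 0 with an unadjusted p under 0.05), were 1 with quantile normalization, the common median, the filter on all arrays, the Gapdh ratio or the replicate block. The block, for which the labels give no pairing, added Nr1d2 (adjusted p = 0.0231) and Arntl (0.0350). Calls over all probe sets, 74 as reported, were 8 without a filter, 20 without the variance trend, 38 without HF3 and LF3, 103 with the block and 26 to 75 with single arrays left out. The 5 genes called in the related lists were 0 without a filter, 2 without the trend, 3 without HF3 and LF3 and 3 to 5 with single arrays left out. The cause of these changes was not tested. The sign turned for Per3 with the Gapdh ratio (log2 difference 0.13), without HF1 (0.16) and without LF3 (0.10), and for Nr1d1 without LF1 (0.030). With single arrays left out Per3 ran from -0.23 to 0.16 and Nr1d1 from -0.17 to 0.030. Per1, Per2, Cry1, Cry2, Nr1d2, Arntl and Clock kept their direction under every alternative in which they were tested. Per2 on the high-fat and Arntl on the low-fat diet lay close above the floor, where signal over background limits what can be measured.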

Other observations

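Over the 6 arrays, the log2 values of Per2 were followed most closely by those of Tk1, a thymidine kinase (r = 0.996), Hpgd, a prostaglandin dehydrogenase (0.996), Idi1, an enzyme of cholesterol synthesis (0.993), Vamp3 (0.990) and Nudt21 (0.989), among 6548 tested genes outside the loop. For Arntl the closest were Laptm4b (0.991), Ndrg4 (0.991), Lpcat3, a phospholipid acyltransferase (0.988), Cidea, a lipid droplet protein gene (0.986), and Hdac6 (0.984). In all, 41 genes reached an r of at least 0.95 with Per2 and 39 with Arntl. The log2 difference between the diets was -0.76 for Tk1, -0.92 for Hpgd, -3.02 for Idi1 and 4.49 for Cidea (adjusted p = 0.0415, 0.0157, 4.776e-05 and 0.00258 in limma), and the adjusted p was 0.221 or higher for the other 6 genes named. These correlations are descriptions over 6 points that share the diet contrast, the scaling and the chip, and genes with any clear difference between the diets come out high.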
